A study of Gallus gallus with 4 samples.

Results

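Heat shock factors are the transcription factors that switch on chaperone genes when proteins misfold, and the cytosolic chaperones are the machines that fold, hold or refold those proteins. HSP70 binds exposed hydrophobic stretches, J-domain proteins of the HSP40 family deliver clients and start its ATPase cycle, HSP110 proteins exchange its nucleotide, and HSP90 takes over many signalling proteins at a later step. These chaperones are also active without stress, in dividing cells and in cells that make much protein. The 10 genes followed here were HSF1, HSF2, HSF3, HSPH1, HSPA4L, HSPA2, HSPA8, HSP90AA1, HSP90AB1 and DNAJA1. Their probes were taken where the array's own accession was a RefSeq transcript of the gene in a table of chicken genes. That gave 23 probes for 7 of the 10 genes, out of 43603 probes and 5382 matched genes in all. HSF1, HSF3 and HSP90AB1 had no probe under this rule and were not analysed here. All 23 probes were well above background on all 4 arrays.

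The arrays hold total RNA of chick neural retina cultures. Retinas of embryonic day 8 (stage 33) were trypsinised and plated in medium with fetal bovine serum. They were given 10 µM DAPT in DMSO, or DMSO alone, from day 2 to day 12, with the medium renewed every 2 days in both groups. DAPT blocks γ-secretase, the protease that frees the active part of the Notch receptor, and the solvent was shared by both groups. Each group had 2 samples, each on 1 one-colour array, and the labels do not tell whether both samples of 1 group derive from different embryos or platings, so that p-values measure a spread that may be technical. The file headers put replicate 1 of both groups on 1 slide and replicate 2 on another. With 2 arrays a group, the number of arrays limits the precision.

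The arrays carried 43803 spots apart from controls, of which 85.7% to 89.3% were well above background. The neural retina genes PAX6, RAX and SIX3 were well above background in both groups. Of 9 measured neural retina markers 2 rose and 2 fell. PAX6 and RLBP1 rose, with log2 differences of 0.57 and 1.91, and STMN2 and ELAVL4 fell, at -2.07 and -1.59. The summed signal of the 9 was 50.03 and 59.8 in DMSO against 62.7 and 63.1 in DAPT, in multiples of each array's 75th percentile, and does not show these opposite changes. Lens, fibroblast and pigment epithelium markers differed strongly between the groups. Of 16 measured lens markers 14 rose and 0 fell, and their summed signal was 14.3 and 18.2 in DMSO against 648 and 686 in DAPT. All 12 fibroblast and mesenchyme markers with a value on every array fell, with a summed signal of 404 and 504 in DMSO against 63.1 and 63.9 in DAPT. A 13th, DCN, had its spot left out on DMSO array 1 as an outlier. DCN was well above background on only 1 DAPT array, so it was tested only through DMSO, where it was higher, and its fall is not counted. Of pigment epithelium markers 6 of 7 rose, and their summed signal went from 0.393 and 0.534 to 1.73 and 1.80. Among the 6, TYR was well above background on only 1 DMSO array, with log2 signals of -7.27 and -7.94 in DMSO. It was thus tested only through DAPT, where it was higher. Skeletal muscle markers had a summed signal of 1.14 and 1.54 on the DMSO arrays and 0.449 and 0.478 on the DAPT arrays (0 of 6 rose, 2 fell), with MYF5 not above background on any array. Those that fell were TNNT3 (log2 difference -2.81) and ACTN2 (-1.55), and ACTN2 made up most of the sum. MYOG, MYOD1, MYF6 and TNNC2 were not called. Macrophage markers stood at 1.56 and 1.60 on the DMSO arrays and 3.22 and 3.57 on the DAPT arrays (1 of 4 rose, 1 fell), with SPI1 not above background on any array. Nearly all of that sum was CD74, which rose (log2 difference 1.19), while LYZ fell (-0.93) and PTPRC and C1QC were not called. The muscle and macrophage sums thus follow mainly 1 gene each and do not show a change of the cell type. The part of these cell types in the chaperone values below was not tested, and in such bulk RNA a change in the number of cells of a type and a change in RNA per cell cannot be told apart.

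The comparison of DAPT with DMSO asks how the chaperone genes stood on day 12 with the γ-secretase inhibitor. HSPH1, HSF2 and DNAJA1 rose, by 60.3%, 46.0% and 38.2%. HSP90AA1, HSPA4L and HSPA8 had values between 21.5% and 30.5% higher in DAPT but did not pass the test, and HSPA2 lay at 5.52% higher with overlapping groups. No member fell. Thus 3 of the 7 measured members were called higher at an adjusted p under 0.05 in limma, where 12.4% of all 32294 features were called higher and 13.1% lower. Among the 5049 features with a gene symbol, as the members have, these shares were 14.2% and 13.8%. For 6 of the 7, both DAPT arrays lay above both DMSO arrays, which held for 36.9% of all features. The members' median log2 difference was 0.38 (0.36 on slide 1, 0.41 on slide 2), beside 0.061 for all features and 0.081 for those with a symbol. It was 0.24 under quantile normalization and 0.21 with normexp background correction before it, beside 0.065 and 0.038 for all features. With the slide as a block 5 of 7 members were called higher, against 21.2% of all features. No member was called without DAPT replicate 1 or without DAPT replicate 2, and HSPH1 alone was called without DMSO replicate 1 or without DMSO replicate 2.

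**Figure D1:**
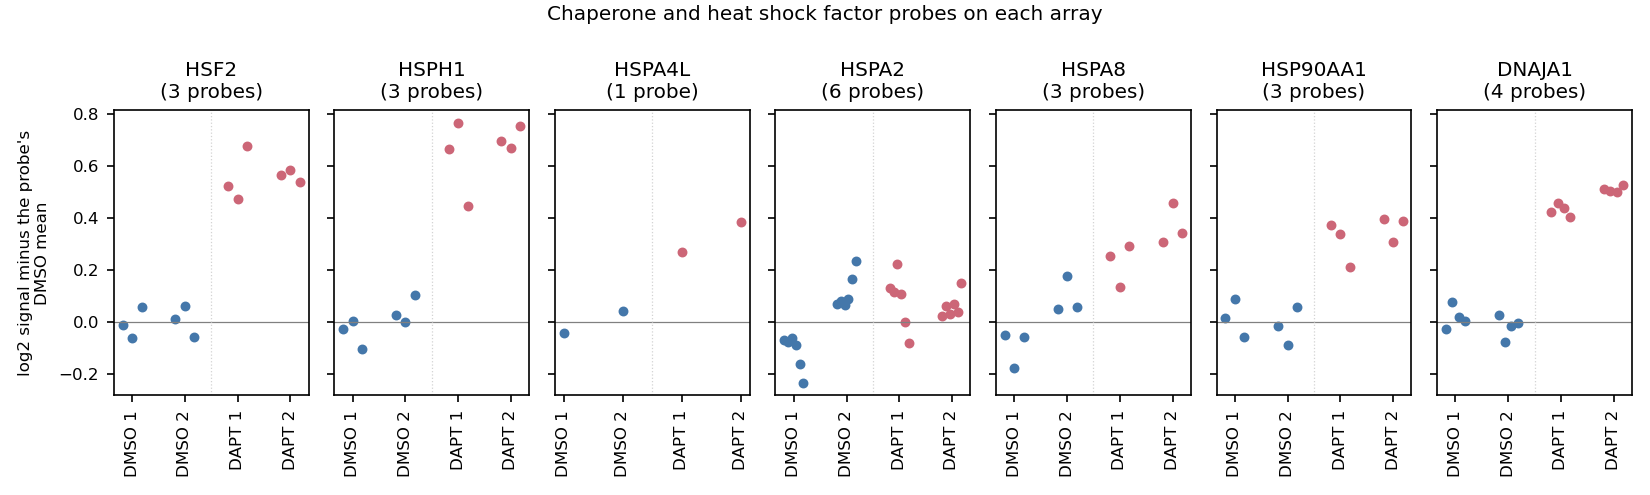
Normalised log2 signal of every probe of the 7 measured genes on each array, less the mean of the same probe in the DMSO arrays (vertical axis, log2 units), with the 2 DMSO arrays in blue and the 2 DAPT arrays in red. The DAPT points of HSF2, HSPH1 and DNAJA1 stand clear of their DMSO points, while those of HSPA2 overlap them.

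HSF2 is the only heat shock factor among the 10 with probes here. In mammals it binds the same promoter element as HSF1 but is tied more to development and differentiation than to acute heat. Its brightest probe had a normalised log2 signal, relative to each array's 75th percentile, of 0.13 and 0.15 on the DMSO arrays and 0.67 and 0.71 on the DAPT arrays. The DAPT arrays were thus both higher, and arrays of a group lay 0.023 and 0.043 apart. HSF2 rose by 0.55 ± 0.099 (log2 difference ± SE, n = 2 arrays per group, limma adjusted p = 0.0231), with 0.54 on slide 1 and 0.56 on slide 2. All 3 probes passed, at 0.53, 0.55 and 0.61, although their mean DMSO signals ran from -2.60 to 0.14. Whichever array was left out, HSF2 missed the threshold (adjusted p = 0.0630 to 0.188), while its difference stayed between 0.52 and 0.57.

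HSPH1, also known as HSP105 or HSP110, exchanges the nucleotide on HSP70 and can hold unfolded proteins. Its processed signal on the scanner's linear scale was 3166 and 3062 on the DMSO arrays and 4731 and 4604 on the DAPT arrays. On the normalised log2 scale these were 0.98 and 1.04 against 1.67 and 1.70, so that the arrays of a group lay close together and the groups far apart. HSPH1 rose by 0.68 ± 0.10 (n = 2 arrays per group, limma adjusted p = 0.0136), with 0.69 on slide 1 and 0.67 on slide 2. This was the largest difference among the 7 members, above that of 90.3% of all features. Of its 3 probes 2 passed, at 0.68 and 0.72, and the dimmest, at 0.60, did not (adjusted p = 0.0555) though its groups did not overlap. Without DAPT replicate 1 or 2 HSPH1 missed the threshold (adjusted p = 0.104 and 0.117).

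HSPA4L, in mammals a relative of HSPH1 in the HSP110 family, had a single probe. Its normalised log2 signal was 2.97 and 3.05 on the DMSO arrays and 3.28 and 3.40 on the DAPT arrays. Both DAPT arrays were higher, by 0.31 on slide 1 and 0.34 on slide 2. The difference of 0.33 ± 0.11 did not pass (limma adjusted p = 0.0999, n = 2 arrays per group), and did with the slide as a block (adjusted p = 0.0426). It also passed with a trended robust prior (limma adjusted p = 0.0447). Its 95% interval ran from 0.036 to 0.62. HSPH1 moved further than HSPA4L: the log2 signal of HSPH1 less that of HSPA4L was -1.99 and -2.02 on the DMSO arrays and -1.61 and -1.69 on the DAPT arrays. That is a shift of 0.35, higher on both DAPT arrays. A two-sided exact permutation test of 2 against 2 arrays cannot give a p below 0.333, and gave 0.333 here (0.333 adjusted over the 6 pairs compared).

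DNAJA1 is a J-domain co-chaperone of the HSP40 family that works with HSP70. Its brightest probe stood at 3.49 and 3.55 on the DMSO arrays and at 3.94 and 4.03 on the DAPT arrays, with no overlap. DNAJA1 rose by 0.47 ± 0.10 (n = 2 arrays per group, limma adjusted p = 0.0389). Its 4 probes gave nearly the same difference, from 0.47 to 0.48, and all 4 passed. They did so over mean DMSO signals from 0.85 to 3.52. By slide, the 4 probes lay at 0.38 to 0.45 on slide 1 and at 0.48 to 0.58 on slide 2. The call was lost whichever array was left out (adjusted p = 0.0860 to 0.275), with quantile normalization, with no filter on dim probes and with the authors' values as deposited (adjusted p = 0.0683, 0.0622 and 0.0535).

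HSPA8, or HSC70, is the HSP70 that cells make at all times, and also strips clathrin from vesicles. Its brightest probe had a processed signal of 167105 and 166837 on the DMSO arrays and 190638 and 188874 on the DAPT arrays, with no saturated spot. On the normalised log2 scale the values were 6.70 and 6.80 against 7.01 and 7.06. The difference of 0.28 ± 0.11 did not pass (limma adjusted p = 0.130, n = 2 arrays per group), and its 95% interval ran from -0.0015 to 0.56. Among 16 alternatives HSPA8 passed in 1, with a trended robust prior (limma adjusted p = 0.0459). The 3 probes lay at 0.28, 0.30 and 0.32, with the groups apart for 2 of them and overlapping for 1. The sign depended on the scaling: HSPA8 was at -0.018 under quantile normalization and -0.013 with normexp background correction before it.

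HSPA2 carries HSP70 as an older name in the chicken gene table. In mammals the gene of this symbol is a testis-rich HSP70, and a mammalian role need not hold in chick. Its processed signal, before scaling, was 91110 and 93144 on the DMSO arrays and 96707 and 85444 on the DAPT arrays. On the normalised log2 scale the values were 5.83 and 5.96 against 6.03 and 5.92, so that the lowest array was a DMSO array. The normalised log2 difference was 0.077 ± 0.11 (limma adjusted p = 0.678, n = 2 arrays per group), with a 95% interval from -0.23 to 0.38. It was 0.20 on slide 1 and -0.045 on slide 2. All 6 probes overlapped between groups, with differences from 0.019 to 0.13, all of them positive on slide 1 and negative on slide 2. Under quantile normalization HSPA2 turned to -0.14, and to -0.15 with normexp before it. HSPA8 less HSPA2 was at 0.98 and 1.14 with DAPT, above its 0.84 and 0.88 with DMSO, a shift of 0.20 (exact permutation p = 0.333, two-sided, the smallest it allows). The shift was 0.12 under quantile normalization and 0.12 without DAPT replicate 2. HSP70 genes are alike in sequence, and how far a probe of HSPA2 or HSPA8 also binds the other's RNA was not tested.

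HSP90AA1 encodes the α form of cytosolic HSP90, the more stress-responsive of the pair in mammals. Its brightest probe stood at 5.83 and 5.80 on the DMSO arrays and at 6.19 and 6.21 on the DAPT arrays. The groups were well apart, with the arrays of a group within 0.034 of each other. The difference of 0.38 ± 0.099 just missed the threshold (limma adjusted p = 0.0557, n = 2 arrays per group). Its 3 probes were at 0.30, 0.32 and 0.38, each with both DAPT arrays above both DMSO arrays. HSP90AA1 passed with the slide as a block (adjusted p = 0.0301) and with median scaling (adjusted p = 0.0499). It also passed with a trended robust prior (limma adjusted p = 0.0138). It was at 0.18 under quantile normalization and at 0.12 with normexp before it.

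**Figure D2:**
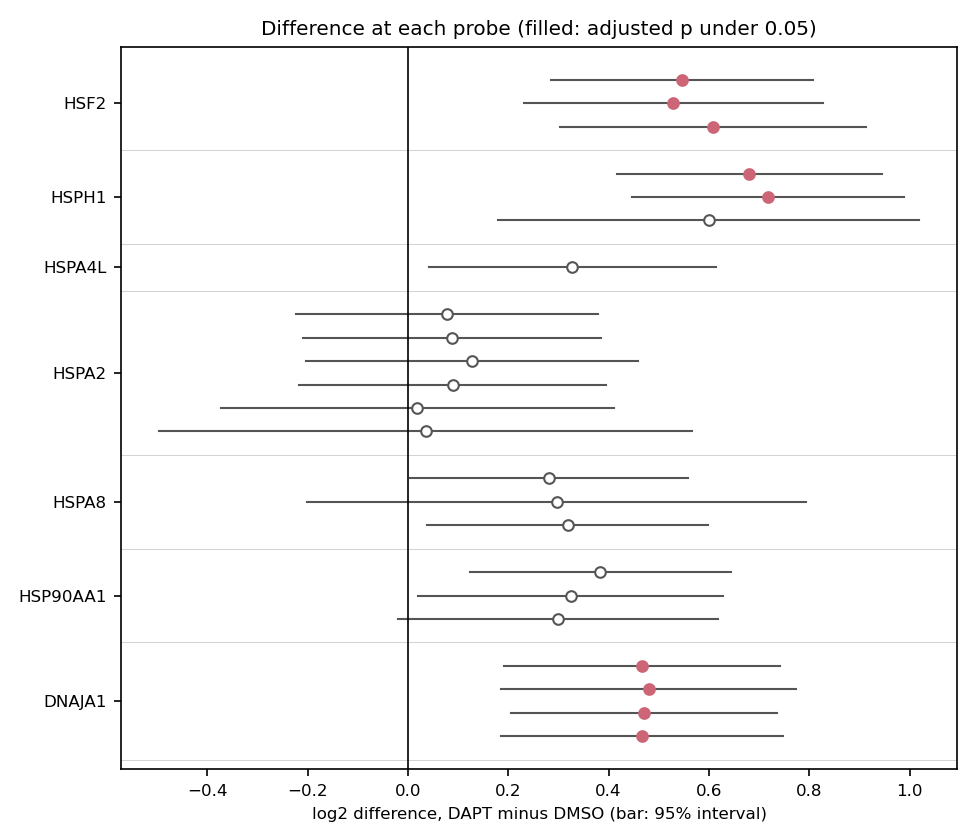
Log2 difference between DAPT and DMSO (horizontal axis) for each of the 23 probes, ordered within a gene from the brightest to the dimmest, with the 95% interval from limma as a bar and filled points where the adjusted p over all probes was under 0.05. Probes of 1 gene lie close together: the spread among probes is 0.013 for DNAJA1 and 0.12 for HSPH1, and the 9 filled points belong to HSF2, HSPH1 and DNAJA1.

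Across the 23 probes, probes of the same gene gave similar differences. The range within a gene was 0.013 for DNAJA1, 0.037 for HSPA8, 0.079 for HSF2, 0.085 for HSP90AA1, 0.11 for HSPA2 and 0.12 for HSPH1. All 23 differences were positive under the scaling used here, with a median of 0.33 beside 0.065 for all probes. As that median is above 0, most of all probes were positive too, and their exact share was not computed. Among the 23, the 6 HSPA2 probes lay at 0.019 to 0.13, near the median of all probes. Under both quantile settings the gene values of HSPA2 and HSPA8 turned negative. For 16 probes the DAPT arrays lay above both DMSO arrays, where this held for 37.6% of all 38428 probes tested. Tested singly, 9 of the 23 were called higher and 0 lower, where 13.1% of all probes were called higher. Probes of a gene measure the same RNA on the same arrays, so they check the probe and not the condition. The 2 arrays of a group differed by a median of 0.11 over these probes, and by at most 0.47, at the dimmest HSPA2 probe.

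Of the other heat shock factors and their regulators, 2 of 6 measured genes rose and 1 fell. PLK1, a mitotic kinase that phosphorylates HSF1 in human cells, rose by 1.01 ± 0.19 (limma adjusted p = 0.0240). HSF4, the factor that lens fibres need in mammals, rose by 0.91 ± 0.16 (adjusted p = 0.0220), from a very dim -6.75 and -6.39 in DMSO to -5.60 and -5.72 in DAPT. HSBP1L1, named for its likeness to the HSF-binding protein HSBP1, fell by 0.77 on the log2 scale (SE 0.10, adjusted p = 0.00992), while HSBP1 itself was at -0.11 ± 0.11. The list's median was 0.24, and 0.094 with normexp correction. Of all features, 12.4% were called higher and 13.1% lower, and of those with a gene symbol 14.2% and 13.8%. The counts of each chaperone list below are to be read against these shares. With normexp correction HSF4 was at 0.28 (adjusted p = 0.108), and at 0.25 with quantile normalization after it (adjusted p = 0.120). All 3 genes missed the threshold without DAPT replicate 1 or 2 (adjusted p = 0.0681 to 0.110). The lens markers rose on the same arrays as HSF4, and whether these rises are linked was not tested.

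In the HSP70 system around the members, 1 of 15 measured genes rose and 2 fell, where 12.4% of all features were called higher and 13.1% lower. The differences ran from -1.70 to 0.69, with a median of 0.15. DNAJC13, a J-domain protein of endosomes, fell by 1.70 on the log2 scale (SE 0.11, limma adjusted p = 0.00242), from 3.22 and 3.38 to 1.56 and 1.64, with its 3 probes at -1.73 to -1.69. DNAJC6, the auxilin that brings HSPA8 to clathrin coats in neurons, fell by 0.65 (SE 0.12, adjusted p = 0.0233). Its 3 probes ran from -0.65 to -0.45, and 2 of them were called. ST13P5 rose by 0.69 ± 0.10 (adjusted p = 0.0141). It was matched to ST13, the HSP70-interacting protein HIP, through a synonym in the table, and whether it is the gene for HIP was not settled. DNAJC6 and ST13P5 missed the threshold without DAPT replicate 1 or 2 (adjusted p = 0.0922 to 0.149), and DNAJC6 also without DMSO replicate 1 (adjusted p = 0.0622).

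Co-chaperones of HSP90 had a median of 0.22, which was 0.18 under quantile normalization and 0.17 with normexp before it. Of 10 measured genes 2 were called higher and 0 lower, beside 12.4% of all features called higher. They were FKBP8, a membrane-bound immunophilin, at 0.61 ± 0.14 (limma adjusted p = 0.0446), and SUGT1, an adaptor of HSP90, at 0.47 ± 0.11 (adjusted p = 0.0462). CDC37, which loads kinases onto HSP90, was at 0.28 ± 0.12 and PTGES3, the p23 co-chaperone, at 0.014 ± 0.13, and neither passed. Neither call held with no filter (limma adjusted p = 0.0697 and 0.0719) or with the authors' values as deposited (adjusted p = 0.0555 and 0.0742). The same was true without DMSO replicate 1, DAPT replicate 1 or DAPT replicate 2 in turn. SUGT1 missed the threshold in 6 alternatives that kept all arrays (adjusted p = 0.0702 to 0.123), among them both quantile settings. Of the 2 SUGT1 probes, at 0.33 and 0.47, only 1 was called. SUGT1 missed the threshold without DMSO replicate 2 too (adjusted p = 0.127).

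TRiC is the ring-shaped chaperonin that folds actin and tubulin, and prefoldin hands it those clients. Of 10 measured genes of this list, 2 rose and 0 fell, with a median of 0.40, where 12.4% of all features were called higher. The list also holds PDCL3, a subunit of neither complex, which was at -0.0036 ± 0.17 with overlapping groups. The list's median was 0.29 under quantile normalization and 0.28 with normexp before it. The prefoldin subunits PFDN1 and PFDN4 rose by 0.80 ± 0.11 and 0.64 ± 0.11 (limma adjusted p = 0.0103 and 0.0194). Of the 2 PFDN1 probes, at 0.73 and 0.80, only 1 was called, while all 3 PFDN4 probes were. The TRiC subunits CCT2, CCT4, CCT5, CCT6A and CCT7 were at 0.31 to 0.44, each with both DAPT arrays above both DMSO arrays, and none passed. TCP1 and CCT8 lay lower, at 0.19 and 0.18, and did not pass either, and the groups of CCT8 overlapped. Both DAPT arrays were above both DMSO arrays for 8 of the 10 genes, where this held for 36.9% of all features. With the slide as a block 6 genes of the list were called higher, against 21.2% of all features. Both prefoldin calls ended without DAPT replicate 1 or 2 (adjusted p = 0.0736 to 0.146), and that of PFDN4 without DMSO replicate 2 (adjusted p = 0.0605).

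The mitochondrial chaperones had a median of 0.36, with 2 of 7 higher and 0 lower. The share of all features called higher was 12.4%, and the list's median was 0.23 under quantile normalization and 0.22 with normexp before it. DNAJC15, a J-domain protein of the inner membrane, rose by 0.72 ± 0.10 (limma adjusted p = 0.0123) and HSPA9, the mitochondrial HSP70, by 0.55 ± 0.11 (adjusted p = 0.0294). The 3 HSPA9 probes ran from 0.46 to 0.55, and 2 of them were called. HSPD1 and HSPE1, the HSP60 and HSP10 of the matrix, were at 0.44 ± 0.12 and 0.36 ± 0.10 and did not pass. Of the 5 HSPD1 probes, at 0.42 to 0.45, 2 were called. With the slide as a block 4 genes of the list were called higher, against 21.2% of all features. HSPD1 and HSPE1 were among them (limma adjusted p = 0.0217 and 0.0390). HSPA9 missed the threshold under quantile normalization (adjusted p = 0.0684) and whichever array was left out (adjusted p = 0.0552 to 0.205), and DNAJC15 without DAPT replicate 1 or 2 (adjusted p = 0.108 and 0.0874).

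Of small heat shock proteins and HSP47, 3 of 7 rose and 0 fell, with a median of 0.55 that was 0.26 on slide 1 and 0.84 on slide 2. The α-crystallin genes CRYAA and CRYAB, which are also lens markers here, account for 2 of these. HSPB1, the ubiquitous small heat shock protein HSP27 of mammals, rose by 1.13 ± 0.14 (limma adjusted p = 0.00950), but missed the threshold without DAPT replicate 2 (adjusted p = 0.0506). SERPINH1, the collagen chaperone HSP47 of the endoplasmic reticulum, was at 0.0076 ± 0.11 while all 12 fibroblast and mesenchyme markers with a value on every array fell.

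Chaperones of the endoplasmic reticulum had a median of -0.090, with 1 of 11 higher and 3 lower. Calnexin, CANX, rose by 0.67 ± 0.11 (limma adjusted p = 0.0200). DNAJB9, a J-domain protein of the unfolded protein response, fell by 0.58 (SE 0.099, adjusted p = 0.0199), HSPA13, an HSP70 relative, by 0.46 (SE 0.11, adjusted p = 0.0498), and the disulphide isomerase P4HB by 0.45 (SE 0.11, adjusted p = 0.0440). HSPA5, the HSP70 of this compartment, was at -0.20 ± 0.098 and HSP90B1, its HSP90, at 0.053 ± 0.11, and neither passed. Of the 3 HSPA13 probes, at -0.47 to -0.44, 1 was called, and of the 3 P4HB probes, at -0.65 to -0.45, 2 were. HSPA13 missed the threshold in 6 alternatives that kept all arrays (adjusted p = 0.0506 to 0.0857), among them both normexp settings and quantile normalization. P4HB missed it with median scaling and with no filter on dim probes (adjusted p = 0.0734 and 0.0691). The list's median was -0.19 under either quantile setting and -0.046 with median scaling. Each of the 4 calls ended whichever array was left out (adjusted p = 0.0536 to 0.311).

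**Figure D3:**
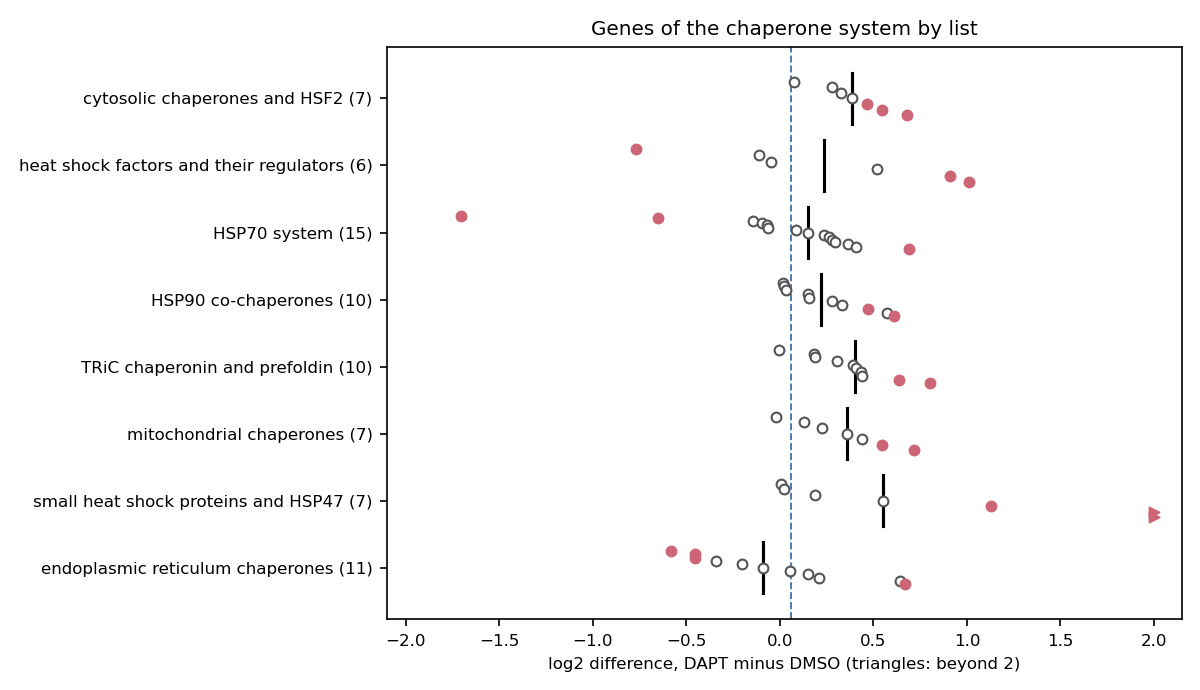
Log2 difference between DAPT and DMSO (horizontal axis) of every measured gene of each list, with filled points for an adjusted p under 0.05, a black line at the list's median, triangles for CRYAA and CRYAB beyond the axis, and a dashed line at the median of all features, 0.061. The list medians run from -0.090 for the endoplasmic reticulum to 0.55 for small heat shock proteins.

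The HSP70 and HSP90 genes of the 3 compartments were set side by side within each array, in pairs chosen after their values were seen. HSPA8 less HSPA5 stood at 0.99 and 1.09 on the DMSO arrays and 1.49 and 1.55 on the DAPT arrays, a shift of 0.48 towards the cytosolic gene. HSPA8 less HSPA9 shifted the other way, by -0.27, from 2.48 and 2.70 to 2.26 and 2.39. HSP90AA1 less HSP90B1 shifted by 0.33, and HSP90AA1 less TRAP1, the mitochondrial HSP90, by 0.25. Each gene was taken at its brightest probe, and other probes can give other shifts. The 3 probes of HSPA9 differed between DAPT and DMSO by 0.46 to 0.55, with the brightest the highest. Those of TRAP1 ran from -0.042 to 0.19 and so differed in sign. Under quantile normalization the shift of HSP90AA1 less TRAP1 was 0.13, and 0.037 with normexp before it, while that of HSP90AA1 less HSP90B1 was 0.23 and 0.20. HSPA8 less HSPA9 went to -0.45 and -0.47 under these settings and to -0.15 without DMSO replicate 2. HSPA8 less HSPA5 was at 0.39 and 0.40. In the values by array, the groups of all 4 pairs did not overlap. The share of all gene pairs that do so was not computed, and 36.9% of single features were higher in DAPT without overlap. Each exact permutation test gave p = 0.333, two-sided, the smallest that 2 against 2 arrays allow (0.333 adjusted over the 6 pairs). Any pair without overlap gives this p, so the test adds nothing for pairs picked by their values.

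**Figure D4:**
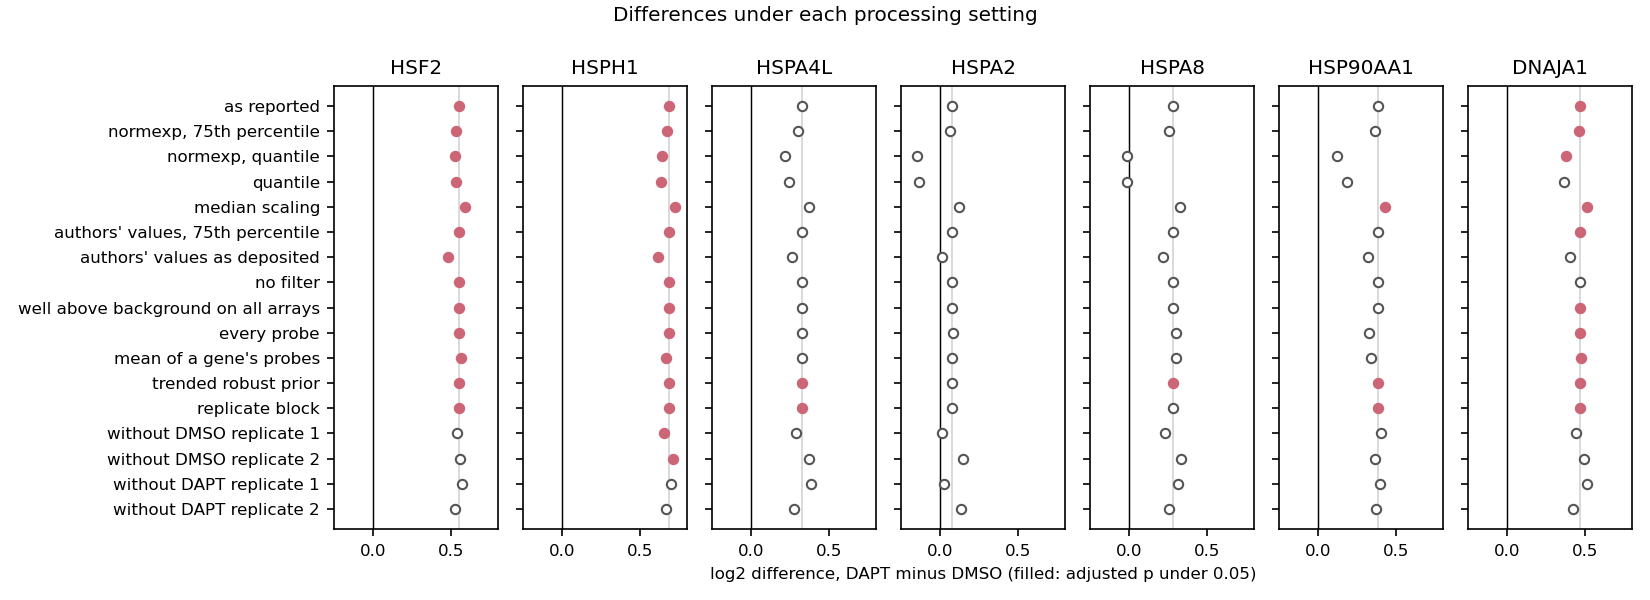
Log2 difference between DAPT and DMSO (horizontal axis) of the 7 genes under each processing setting (rows), with filled points for an adjusted p under 0.05 and a grey line at the value as reported. HSF2 stays between 0.48 and 0.59 and HSPH1 between 0.62 and 0.72 in all 16 alternatives, whereas HSPA2 and HSPA8 cross 0 under both quantile settings.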

How the data were processed

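RNA of 4 cultures (100 ng each, Cy3) was measured on chicken arrays. Per the file headers, the authors' deposited spot intensities were made with Agilent Feature Extraction 11.5.1.1, whose processed signal is an intensity after background subtraction. The deposited value table is that intensity times 1 factor per array (1.41 to 1.51), so scaling by percentile gives the same values from both. What set the factors is unknown, and the table is linear, with no centring per gene and medians of 336 to 380. Control spots and spots flagged as outliers (4 to 8 per array) were left out. Log2 intensity minus each array's 75th percentile was averaged over a probe's spots and fitted with limma 3.58.1 in R 4.3.3 (lmFit, eBayes, prior degrees of freedom 2.39, Benjamini-Hochberg over all features, threshold 0.05). A feature was tested if either group had it well above background on all its arrays. A gene was represented by its brightest probe, and an unnamed probe stood alone: 32294 of 37050 features passed, 5049 with a gene symbol. Accessions were named through RefSeq's table of assembly GRCg7b (11935 of 43603 probes matched). A further 14692 probes, known by Ensembl transcript alone, were not named, so other genes of the lists may lie among them. Of 135 list entries 120 were found in that table.

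The members, the 7 lists, the marker lists and the tests were chosen with earlier results of these data known. Named were all members and in each list at most 4 genes past the threshold, by size of change. Other list genes (HSBP1, CDC37, PTGES3, the TRiC subunits, PDCL3, HSPD1, HSPE1, SERPINH1, HSPA5, HSP90B1, TRAP1) and the retina, muscle and macrophage genes, with DCN and TYR, were named after their values were seen. A planned description of promoters and proteins was not made. Deviations of same-numbered arrays correlated at 0.58 over all features, and the headers place them on the same slide, so the block for slide and for replicate number is the same fit. Alternatives were other background corrections, scalings, filters, probe rules and priors, that block, and each array left out. The fit was also run on simulated data, with independent errors drawn from the fit's own prior. Those data held no deviation shared by a slide, so the run does not show how the fit behaves with it.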

Additional observations from a re-analysis of the deposited data

How the results depend on the processing

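Over 16 alternatives, the 7 members gave 112 values, of which 89 kept direction and side of the threshold, 13 lost the call, 6 gained it and 4 reversed; for the 19 named list genes 236 of 304 were kept, 68 lost and 0 reversed. The reversals were HSPA2 (-0.15) and HSPA8 (-0.013) under normexp with quantile normalization, and HSPA2 (-0.14) and HSPA8 (-0.018) under quantile normalization; the cause was not tested. With the replicate block, 6858 features were higher, with 5 members, 3 genes of the HSP70 system, 4 HSP90 co-chaperones, 6 TRiC and prefoldin genes, 4 mitochondrial and 2 endoplasmic reticulum chaperones higher. With a trended robust prior 4746 features were higher, against 3991 in the main fit. Among them were 6 members, 4 HSP90 co-chaperones, 5 TRiC and prefoldin genes, 4 mitochondrial and 2 endoplasmic reticulum chaperones. Normexp with the percentile gave 3794 features higher, with 1 heat shock factor or regulator, 2 HSP70 system and 2 endoplasmic reticulum genes. Normexp with quantile normalization gave 3523 features higher, with 1 heat shock factor or regulator, 1 mitochondrial and 2 endoplasmic reticulum genes. Quantile normalization gave 3987 features higher, with 1 HSP90 co-chaperone and 1 mitochondrial chaperone. Testing every probe gave 5024 of 38428 probes higher, with 1 HSP90 co-chaperone and 1 TRiC or prefoldin gene. The authors' values as deposited, added after seeing the data, gave 3366 features higher, with 0 HSP90 co-chaperones. No filter gave 3159 features higher and 3634 lower, with 0 HSP90 co-chaperones higher and 1 endoplasmic reticulum gene lower. Median scaling gave 4407 features higher and 3903 lower, with 1 endoplasmic reticulum gene lower. In the fits with 1 array left out the lone array of its group is assumed to vary like the others; they gave 1345 to 3078 features higher and 2032 to 3360 lower, 0 to 1 members higher, heat shock factors and regulators 0 to 2 higher and 0 to 1 lower, HSP70 system 0 to 1 higher and 1 to 2 lower, HSP90 co-chaperones 0 to 1 higher, TRiC and prefoldin 0 to 2 higher, mitochondrial chaperones 0 to 1 higher, and endoplasmic reticulum chaperones 0 to 1 higher and 0 lower. The planned promoter alternative was not run. All 23 member probes were well above background on all 4 arrays.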
